A study of Mus musculus with 6 samples.

Results

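The genes described here are the erythropoietin receptor gene Epor and 8 genes of the red cell membrane, its skeleton and its blood group proteins, namely Slc4a1, Ank1, Rhag, Rhd, Kel, Ermap, Aqp1 and Add2. They were taken by symbol from a deposited table of 16440 genes, and all 9 symbols were found. RNA sequencing covered 6 mouse libraries, 3 per group. Normal myeloid progenitors (MPs) were Lin-Sca-1-c-Kit+ cells sorted from the bone marrow (BM) of FVB N/J mice, a gate without Sca-1+ stem cells or lineage-marked mature cells that still holds granulocytic, monocytic, megakaryocytic and erythroid precursors. The leukemic cells were c-Kit+ acute promyelocytic leukemia (APL) cells on the same FVB N/J background, from hMRP8-PML/RARα transgenic mice, in which a promoter of the human MRP8 gene drives the fusion protein in myeloid cells. They had been marked with GFP by a retroviral vector and expanded by transplantation into syngeneic mice. No drug treatment is given for either group, and ages are not given in the labels. The libraries of a group are described as biological replicates, without saying whether they came from separate mice or, for APL, from more than 1 primary leukemia, so the tests below measure the spread between these libraries.

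Erythropoietin is the hormone that keeps late erythroid progenitors alive and dividing, and it acts through a receptor that signals by the kinase Jak2 and the transcription factors Stat5a and Stat5b. As erythroid cells mature, they assemble a membrane in which the band 3 anion exchanger and the Rh proteins are anchored through ankyrin to a spectrin and actin skeleton, with adducin at the junctions. Blood group antigens are carried by these and other membrane proteins. Erythroid genes of this kind are typically controlled by GATA1, which binds GATA words in DNA.

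The transcription starts of these genes were looked at first, because the genes moved together in the comparison below. The RefSeq promoter table of GRCm38.p6 held 7 of the 9 genes, and Slc4a1 and Ank1 had no entry in it. The word AGATAA together with its variant AGATAG, and likewise the word TGATAA together with its variant TGATAG, were searched on both strands in the 250 bases before each start. At least 1 of these words was present in 6 of the 7 promoters, against 26.5% of 32851 promoters in the table and 18.1% of the 14553 promoters of genes tested below. The promoter of Aqp1 held none. In Epor, Rhag, Rhd, Kel and Ermap the words lay between −67 and −14 from the start, whereas in Add2 the word lay at −234 to −229 from a start outside the locus given for Add2 in the deposited table. The shorter word CACCC, the core of sites bound by Klf1 and related factors, was present in all 7, in 52% of all promoters and in 57.6% of those of genes tested. The longer word CCNCNCCC, which can overlap CACCC, was present in 3 of the 7, in 45.9% of all promoters and in 62% of those of genes tested. These matches describe the letters only and were not tested as binding sites. The windows below show the 5 genes with a GATA word near the start and Aqp1 without one, each 5′ to 3′ on the strand of the gene with the GATA words in capitals. They lie at chr9:21963578-21963677 (minus strand) for Epor, chr17:40811049-40811128 (plus) for Rhag, chr4:134864436-134864535 (plus) for Rhd, chr6:41704326-41704425 (minus) for Kel, chr4:119190010-119190109 (minus) for Ermap and chr6:55336199-55336298 (plus) for Aqp1.
Epor: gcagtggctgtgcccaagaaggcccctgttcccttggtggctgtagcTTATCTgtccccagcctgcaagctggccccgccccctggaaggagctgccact
Rhag: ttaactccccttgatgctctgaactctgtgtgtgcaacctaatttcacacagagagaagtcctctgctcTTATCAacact
Rhd: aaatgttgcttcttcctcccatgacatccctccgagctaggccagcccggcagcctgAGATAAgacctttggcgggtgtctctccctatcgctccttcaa
Kel: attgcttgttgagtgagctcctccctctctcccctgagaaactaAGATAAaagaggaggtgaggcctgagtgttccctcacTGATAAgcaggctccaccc
Ermap: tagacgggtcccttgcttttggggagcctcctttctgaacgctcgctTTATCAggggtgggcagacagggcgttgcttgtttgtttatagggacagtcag
Aqp1: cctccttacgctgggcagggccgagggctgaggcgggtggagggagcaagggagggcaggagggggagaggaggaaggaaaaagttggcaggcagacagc

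The main comparison asked how these genes differed between the c-Kit+ APL progenitors and normal MPs. Of the 9 genes, 8 were lower in APL, and each of the 8 kept between 0.376% and 1.61% of its mean MP level in scaled fragments. Only Slc4a1, which was close to absent from both groups, did not pass the test. The test was limma on log2(scaled fragments + 1), and a gene was called at a Benjamini-Hochberg adjusted p under 0.05 over the 14595 genes tested and a fold change over 1.5. Scaled fragments are the authors' estimated fragments per gene, already scaled by a factor of each library. By these thresholds 24.4% of all genes tested were called lower and 21.7% higher, and the median log2 fold change was −0.10, against −7.76 over the 9 genes. Every APL value lay below every MP value in the same 8 genes, as it did in 39.8% of all genes tested. In these bulk samples, fewer erythroid cells and less RNA per cell cannot be told apart. Total fragments before scaling lay between 20608700 and 28382679 per library, and the 8 genes held between 3 and 80 of them in an APL library, against 1228 or more in an MP library.

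**Figure D1:**
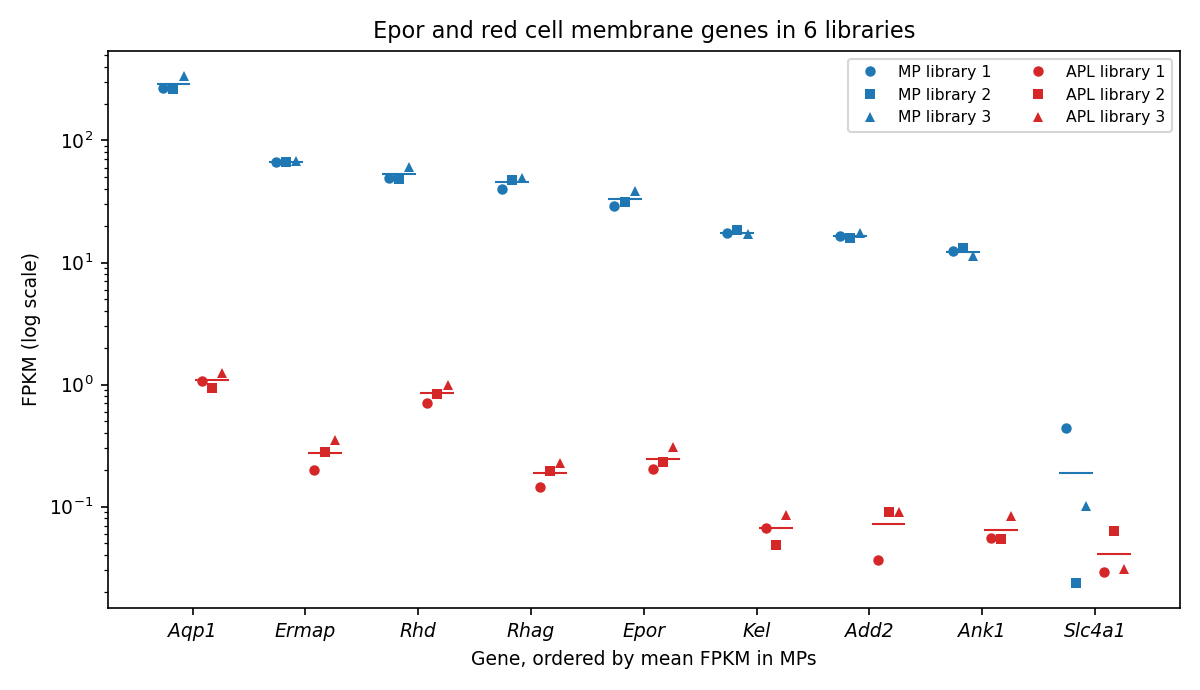
FPKM of the 9 genes (log scale) in each of the 6 libraries, with genes ordered by their mean in MPs and a line at the mean of 3 libraries. The MP and APL points are wide apart in 8 genes and overlap in Slc4a1, whose MP libraries ranged from 0.0239 to 0.445 FPKM.

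The receptor gene Epor (Entrez 13857, chromosome 9 of GRCm38 from 21958898 to 21963576) had 1150, 1236 and 1654 scaled fragments across MP libraries 1 to 3 and 8.25, 9.54 and 12.3 across APL libraries 1 to 3. The lowest MP library was thus far above the highest APL library, and MP library 3 was 1.39 times the mean of the other two. In FPKM, which also corrects for transcript length, the MP level was 33.0 ± 5.03 (SD, n = 3) and the APL level 0.247 ± 0.0542 (SD, n = 3). The log2 fold change was −6.93 (SE 0.20, limma adjusted p = 2.3e-08), a 134-fold lower mean. The 7 to 11 fragments behind each APL value limit the precision of that fold.

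Among the membrane transporters, Aqp1 and Rhag both fell. Aqp1, the water channel that carries the Colton blood group, was the most abundant of the 9 genes in MPs, where only 1.35% of the genes in the table had a higher mean FPKM. It had 19297, 18898 and 24966 scaled fragments across MP libraries 1 to 3 and 77.8, 69.4 and 90.1 across APL libraries 1 to 3. MP library 3 was the highest, and no APL library came near an MP library. The log2 fold change of Aqp1 was −8.03 (SE 0.13, limma adjusted p = 2.6e-09), and 0.0411% of genes tested had a larger decrease. Rhag, which belongs to the ammonium transporter family and forms the Rh complex, had 2291, 2764 and 2807 scaled fragments in the MP libraries and 8.25, 11.3 and 13.6 in the APL libraries. Its values were separated between groups by more than the spread within either, with a log2 fold change of −7.79 (SE 0.19, limma adjusted p = 1.0e-08).

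Rhd, the Rh blood group protein that assembles with Rhag, kept the most of its MP level among the 8 genes that fell. It had 1664, 1661 and 2189 scaled fragments across MP libraries 1 to 3 and 24.7, 29.5 and 34.6 across APL libraries 1 to 3. The groups did not overlap, and the MP libraries spread more widely around their mean than those of Kel or Ermap did. Its mean was 62.1-fold lower in APL, with a log2 fold change of −5.91 (standard error 0.17, adjusted p = 1.8e-08 from limma). The 95% confidence interval of that fold change, −6.29 to −5.53, lay above the intervals of the 7 other genes that fell, of which the nearest was that of Epor at −7.39 to −6.47. The differences between the fold changes of these genes were not themselves tested.

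The blood group genes Kel and Ermap had MP values close to one another across libraries. Kel, a zinc metalloprotease that carries the Kell antigens, had 1268, 1306 and 1239 scaled fragments in MPs and 4.71, 3.47 and 6.17 in APL, where each value stood for 4 or 5 fragments. Its log2 fold change was −7.81 (SE 0.20, limma adjusted p = 1.3e-08). Ermap, an immunoglobulin superfamily protein of erythroid membranes that carries the Scianna antigens, had 8804, 8749 and 8865 scaled fragments in MPs and 26.0, 37.3 and 46.9 in APL. The MP libraries differed by less than the APL libraries did in relative terms, with 66.8 ± 0.432 FPKM in MPs and 0.278 ± 0.0771 in APL (SD, n = 3 each). The log2 fold change of Ermap was −7.91 (SE 0.18, limma adjusted p = 8.1e-09).

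The skeleton genes Ank1 and Add2 fell as well. Ank1, the erythroid ankyrin, had 3192, 3301 and 2958 scaled fragments across MP libraries 1 to 3 and 14.1, 13.9 and 21.0 across APL libraries 1 to 3. It was 1 of the 3 genes in which MP library 3 was not the highest, and its log2 fold change was −7.53 (SE 0.17, limma adjusted p = 6.8e-09). Ank1 lies on chromosome 8, where the median of the 778 genes in the test lay 0.61 higher on the log2 scale than that of genes on other chromosomes. Add2, the beta adducin, had 1618, 1533 and 1741 scaled fragments in MPs and 3.53, 8.67 and 8.64 in APL. No library overlapped between the groups, and the log2 fold change of Add2 was −7.76 (SE 0.29, limma adjusted p = 6.3e-08), the largest standard error among the 8 genes. The locus listed for Add2, chromosome 6 from 86078083 to 86119555, starts inside the RefSeq gene, which runs from 86028681 to 86124409.

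**Figure D2:**
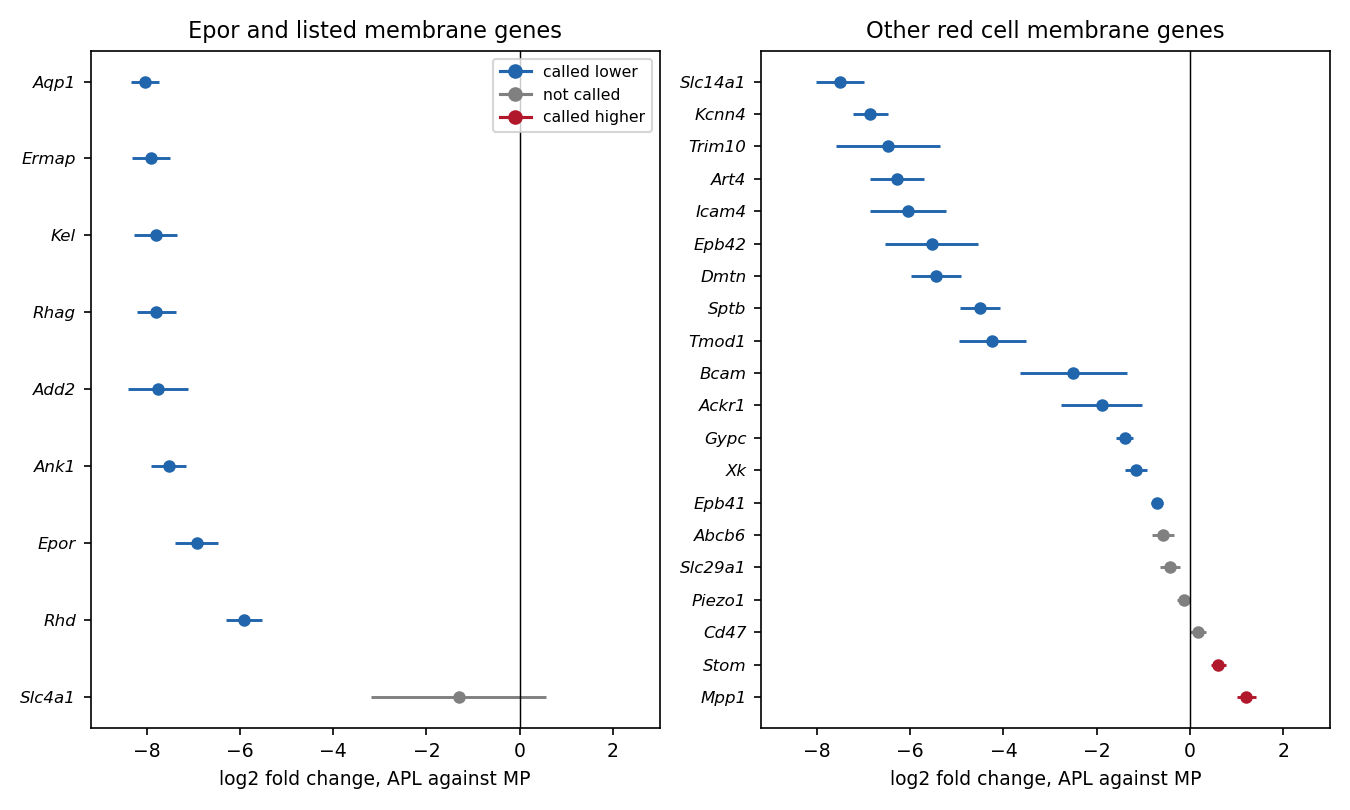
Log2 fold changes of APL against MP with 95% confidence intervals from limma, for the 9 genes (left) and for 20 other red cell membrane genes (right). On the left all genes but Slc4a1 lie between −8.03 and −5.91, and on the right the values run from −7.50 for Slc14a1 to 1.21 for Mpp1.

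Slc4a1, which encodes the band 3 anion exchanger, stood apart from the others. It is the most abundant membrane protein of the mature red cell, but here it had only 53.4, 2.86 and 12.6 scaled fragments across MP libraries 1 to 3 and 3.53, 7.80 and 3.70 across APL libraries 1 to 3. The groups overlapped, since MP library 2 was below every APL library in scaled fragments. Before scaling, the values stood for 57, 3 and 14 fragments in MPs and 3, 9 and 3 in APL. MP library 2 thus tied with APL libraries 1 and 3 before scaling. At 0.190 ± 0.224 FPKM in MPs and 0.0411 ± 0.0194 in APL (SD, n = 3 each), it was the only one of the 9 genes below 1 FPKM in MPs. The fold change was −1.31 on the log2 scale (SE 0.83, 95% confidence interval −3.19 to 0.57, adjusted p = 0.191 from limma). A two-sided exact permutation test gave p = 0.4. For each other gene of the 9, the same permutation test gave p = 0.1, the smallest it can give for 3 libraries against 3. The estimate rested on single libraries. Without MP library 1 it was −0.34 (adjusted p = 0.654 from limma), and without MP library 2 it was −2.25 and passed the test (adjusted p = 0.00937 from limma).

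The values of Slc4a1 in single libraries were set beside those of other genes. By the root mean square difference of centred log2 values over the 6 libraries, the nearest of 10310 genes with a mean of at least 100 scaled fragments was Beta-s, a beta globin gene, at 0.528. Beta-s had 427, 95.1 and 231 scaled fragments across MP libraries 1 to 3 and 51.2, 95 and 54.8 across APL libraries 1 to 3. Its MP libraries stood in the same order as those of Slc4a1, and APL library 2 was the highest of the APL libraries in both genes. The alpha globin gene Hba-a1 showed that order as well, with 880, 463 and 583 in MPs and 66.0, 136 and 65.4 in APL. Reads of the globin genes can be divided among near-identical copies, so their levels are uncertain. The next nearest genes were Klf2, Fosb, Egr1 and Ngp, at 0.706 to 0.865, of which Fosb and Egr1 are immediate early genes and Ngp is a neutrophil granule gene. For Epor, which had far more fragments than Slc4a1 in MPs, the nearest 5 genes were much closer, at 0.099 to 0.182. They were Ryk, a receptor-like tyrosine kinase gene, the growth factor gene Angpt1, Pcyt1b, the potassium channel gene Kcnk5 and the erythroid nuclear factor gene Hemgn, and their log2 fold changes ran from −7.00 to −6.80. Fold changes near that of Epor followed from the way these genes were picked, because the distance spans both groups. All of these genes, like Epor, had a difference between the groups far larger than that between libraries of a group.

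**Figure D3:**
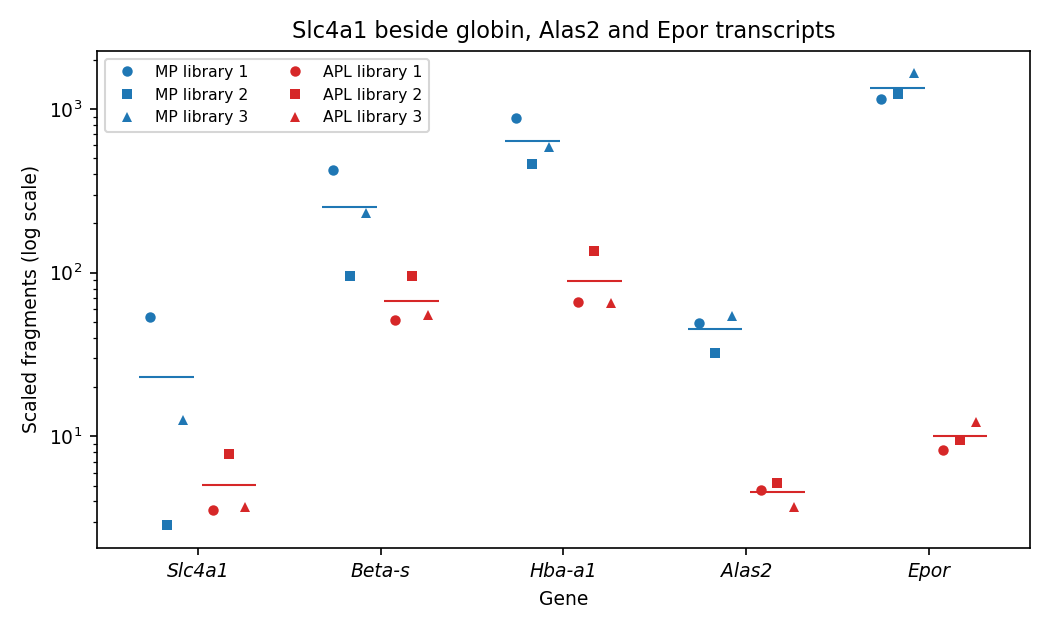
Scaled fragments (log scale) of Slc4a1, Beta-s, Hba-a1, Alas2 and Epor in each library, with a line at the mean of 3 libraries. Among MP libraries, number 2 is lowest for Slc4a1, Beta-s, Hba-a1 and Alas2 and is not lowest for Epor.

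The genes were also placed in order of their FPKM, the scale on which levels of different genes can be compared. In MPs the order was Aqp1 (291 ± 40.6), Ermap, Rhd (52.8 ± 7.18), Rhag (45.6 ± 4.86), Epor, Kel (17.6 ± 0.662), Add2 (16.5 ± 0.747), Ank1 (12.3 ± 0.873) and Slc4a1 (SD, n = 3 each). Neighbours in this order did not overlap, except for Rhd with Rhag and Kel with Add2, whose ranges over the 3 libraries did. In APL the order was Aqp1 (1.08 ± 0.148), Rhd (0.846 ± 0.142), Ermap, Epor, Rhag (0.190 ± 0.0426), Add2, Kel, Ank1 and Slc4a1, and the last 4 genes were all at 0.0721 FPKM or below. Neighbours overlapped there in 6 of 8 cases, all but Rhd above Ermap and Rhag above Add2. Together the 9 genes summed to 501, 506 and 599 FPKM across MP libraries 1 to 3 and to 2.51, 2.75 and 3.41 across APL libraries 1 to 3, with 0.540% of the MP sum left in APL. MP library 3 was the highest in 6 of the 9 genes, by up to 1.39 times the mean of the other MP libraries, where the median gene of the table was at 1.08.

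Markers of the cell types that the gates could hold were read beside these values. The listed erythroid markers summed to between 1969 and 2486 FPKM in MPs and between 15.7 and 27.7 in APL, and of the 10 found in the table, 8 entered the test and all 8 were lower in APL. Car1 and Car2 accounted for most of the MP sum, with means of 1406 and 491 FPKM, whereas Alas2 was at 0.823. In APL the largest term was Hba-a1, at a mean of 10.2 FPKM. The globin gene Hba-a2 was at 0 in MP library 2 and at or below 0.00533 scaled fragments in the APL libraries, and Hbb-b1 was at or below 0.00174 in 4 of the 6 libraries. Megakaryocyte markers summed to between 71.0 and 107 FPKM in MPs and 3.90 to 5.20 in APL, with 6 of 7 lower. Granulocyte-monocyte markers summed to between 8456 and 9552 FPKM in MPs and 23044 to 27547 in APL, with 4 of 7 higher and 1 lower. Mpo, Elane, Prtn3 and Ctsg accounted for most of that sum in both groups. The lower gene was Csf1r, with a log2 fold change of −1.81. Over all genes tested, 24.4% were called lower and 21.7% higher. The sort marker Kit was present in all libraries, at 70.6 to 74.5 FPKM in MPs and 39.6 to 40.7 in APL. It was called lower, with a log2 fold change of −0.85. Ly6a, which encodes Sca-1, was low in both, at 0.955 to 1.59 and 2.02 to 2.37 FPKM, and was called higher (0.68). The remaining listed sort marker, Itgam, encodes CD11b. It was at 14.3 to 23.3 FPKM in MPs and 35.4 to 38.4 in APL, and was also called higher (1.01). The share of erythroid and other cells in the MP gate was not measured, and the part of these markers in the result was not tested. Aqp1 is also a gene of endothelial cells, whose 6 listed markers summed to 22.2 to 25.9 FPKM in MPs and 3.62 to 4.6 in APL with 5 of 6 lower. Pecam1 and Tie1 were the highest of these in MPs, with means of 12.2 and 8.93 FPKM. Cdh5 was not called and was at or near 0 in all libraries, with at most 0.029 FPKM. Whether endothelial cells added to the Aqp1 values was not tested. Of 6 lymphoid markers, Cd79b accounted for most of the summed level of 12.2 to 14.9 FPKM in MPs and 0.305 to 0.638 in APL, 2 of the 3 tested were lower, and Cd3e was listed at 0 in 5 of the 6 libraries.

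Other genes of the red cell membrane, from a list of 22, ran from decreases as large as those above to small increases. Of the 22 genes, 16 were lower in APL, 2 were higher and 4 were not called, and the median log2 fold change was −3.37 (−2.06 with genes at or under 3 fragments in every APL library set to that limit). These are shares of 72.7% lower and 9.09% higher, against 24.4% and 21.7% of all genes tested. The beta spectrin gene Sptb had 1466 ± 268 scaled fragments in MPs and 63.7 ± 14.3 in APL (log2 fold change −4.51, SD, n = 3 each). The Kidd urea transporter gene Slc14a1 and the potassium channel gene Kcnn4 fell further, with log2 fold changes of −7.50 and −6.85. Among the genes at or under 3 fragments in every APL library, decreases could be given only as limits. Epb42, whose product links band 3 to ankyrin, had 90.3 ± 10.9 scaled fragments in MPs and was at least 27.5-fold lower in APL, against the limit of 3 fragments per library. The blood group genes Icam4 and Art4 fell by 6.05 and 6.29 on the log2 scale.

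Several membrane genes that are used well beyond red cells were still present in APL. Epb41, whose product joins spectrin to actin, had 3377 ± 78.5 scaled fragments in MPs and 2068 ± 6.60 in APL (log2 fold change −0.71, adjusted p = 9.7e-06 from limma). Gypc and Xk, the latter the membrane partner of Kel, fell 2.64-fold and 2.25-fold, where Kel itself fell 266-fold. Cd47, the integrin-associated protein of the Rh complex, had 4871 ± 399 scaled fragments in MPs and 5475 ± 141 in APL and was not called (log2 fold change 0.17, adjusted p = 0.0785 from limma). Piezo1, Slc29a1 and Abcb6 were not called either, with log2 fold changes of −0.13, −0.43 and −0.58. Abcb6 lay just inside the fold limit and was called lower with the same total or voom (−0.71 each) and without MP library 1 (−0.65), MP library 2 (−0.63), APL library 2 or APL library 3 (−0.59 each). Mpp1, a scaffold protein of the membrane skeleton, rose 2.32-fold from 2049 ± 190 to 4747 ± 275 scaled fragments, and Stom rose 1.53-fold. The call of Stom was lost when each library was scaled to the same total, with voom, with quantile normalization and without MP library 2.

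The family members closest to the 9 genes, which share sequence with them and could in principle share reads, did not move as a group. Of 19 listed, 16 were in the table and 13 were tested, of which 6 were lower, 2 higher and 5 not called, with a median log2 fold change of −0.49. Thus 46.2% were lower and 15.4% higher, against 24.4% and 21.7% of all genes tested. Among anion exchangers, Slc4a2 was far above Slc4a1 in both groups, at 10.8 ± 0.339 FPKM in MPs and 14.9 ± 0.812 FPKM in APL (SD, n = 3 each), and Slc4a2 and Slc4a7 were not called (log2 fold changes 0.45 and −0.49). Slc4a7 was called lower with the same total, with voom and without MP library 3 (log2 fold change −0.62 in each). Ank2, an ankyrin of excitable tissues, rose from 1.87, 0 and 5.41 scaled fragments in MP libraries 1 to 3 to 192, 186 and 142 across APL libraries 1 to 3 (log2 fold change 6.03, adjusted p = 2.1e-05 from limma), so Ank1 and Ank2 changed in opposite directions. Add1 fell 1.70-fold, and Add3 was not called with a log2 fold change of 0.34, against 235-fold lower Add2. The aquaglyceroporin gene Aqp9 fell 103-fold and Aqp11 6.43-fold. Among relatives of Kel, the endothelin-converting enzyme gene Ece1 fell 40.1-fold and Ece2 rose 1.88-fold. Btn1a1, a butyrophilin gene related to Ermap, was at least 3.96-fold lower against the limit of 3 fragments per library. Aqp3, Aqp8 and Btn2a2 were in the table but held too few fragments to be tested.

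Genes that act downstream of the erythropoietin receptor went in both directions, and none fell by more than 1.97 on the log2 scale. Of 20 listed signalling genes, 5 were lower in APL, 9 were higher and 6 were not called, and the median log2 fold change was 0.37. The share called lower, 25.0%, was close to the 24.4% of all genes tested. The share called higher was 45.0%, against 21.7% of all genes tested. With the same total or voom, 6 rather than 9 were called higher, without Shc1, Gab1 and Bcl2l1. The core of the pathway fell modestly, with Jak2 1.57-fold, Stat5b 1.89-fold and Stat5a 2.34-fold lower. Jak2 had 2744, 2720 and 2780 scaled fragments across MP libraries 1 to 3 and 1823, 1724 and 1688 across APL libraries 1 to 3. The remaining decreases were those of the transferrin receptor gene Tfrc (log2 fold change −1.32) and of Erfe, the erythroid hormone that acts on hepcidin (−1.97), which fell from 43.2 ± 12.3 to 10.8 ± 5.09 scaled fragments.

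Among inhibitors of the pathway, Cish, Socs1, Socs2, Socs3 and Ptpn6 rose in APL, and Sh2b3 and Cbl were not called. Cish, a Stat5 target that dampens cytokine receptor signals, had 100, 161 and 154 scaled fragments across MP libraries 1 to 3 and 1004, 1246 and 1043 across APL libraries 1 to 3, a log2 fold change of 3.00 (SE 0.18, limma adjusted p = 1.1e-06). The related inhibitors Socs1, Socs2 and Socs3 rose 7.46-fold, 4.36-fold and 4.04-fold, each without overlap between the groups. Every APL value lay above every MP value in 31.1% of all genes tested. The phosphatase gene Ptpn6, which acts on the activated receptor, rose 1.64-fold, while the adaptor Sh2b3 and the ubiquitin ligase gene Cbl had log2 fold changes of 0.16 and 0.20. The kinase gene Lyn rose 2.23-fold, and the Stat5 targets Bcl2l1 and Pim1 had log2 fold changes of 0.67 and 0.54, on either side of the fold limit. Neither side was stable, since Bcl2l1 was called as above but not with the same total (0.54), with voom (0.55) or without APL library 2 (0.57), and Pim1 was called only with median-ratio scaling (0.61) and without MP library 3 (0.62). These genes also serve other cytokine receptors.

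**Figure D4:**
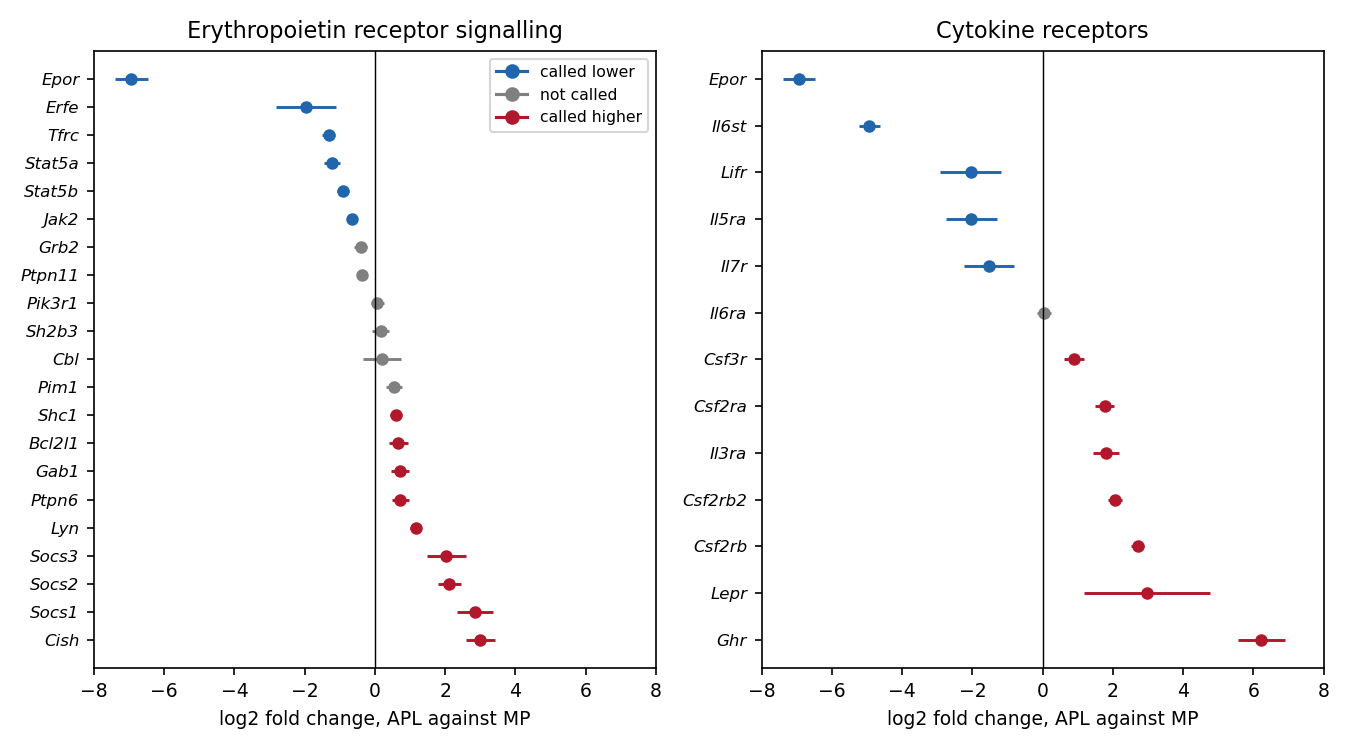
Log2 fold changes of APL against MP with 95% confidence intervals from limma, for Epor with 20 genes of its signalling pathway (left) and with 12 other cytokine receptor genes (right). Epor at −6.93 is the lowest in both panels, while Cish at 3.00 and Ghr at 6.22 are the highest.

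Other cytokine receptor genes were also divided between increases and decreases. Of 14 listed, 13 were in the table and tested, of which 5 were lower, 7 higher and 1, Il6ra, not called, with a median log2 fold change of 0.89. In shares, 38.5% were lower and 53.8% higher, against 24.4% and 21.7% of all genes tested. Il6st, the shared chain of the interleukin-6 receptor family, had 1218, 1080 and 1087 scaled fragments in MPs and 40.1, 32.1 and 35.8 in APL (log2 fold change −4.94, SE 0.13, limma adjusted p = 1.5e-08). Lifr, at 11.9 ± 3.82 scaled fragments in MPs, was at least 3.62-fold lower. The common beta chain gene Csf2rb, which serves GM-CSF, interleukin-3 and interleukin-5, had 2065, 1957 and 1777 scaled fragments across MP libraries 1 to 3 and 11930, 13195 and 12482 across APL libraries 1 to 3. It rose 6.49-fold, its relative Csf2rb2 rose 4.18-fold, and the alpha chains Il3ra and Csf2ra rose 3.51-fold and 3.40-fold. Reads of Csf2rb and Csf2rb2 may be divided between these near-identical genes. The growth hormone receptor gene Ghr, which like Epor signals through Jak2, was close to absent from MPs at 5.62, 14.3 and 11.7 scaled fragments and reached 765, 789 and 887 in APL (log2 fold change 6.22, standard error 0.29, adjusted p = 2.5e-07 from limma). The leptin receptor gene Lepr was called higher as well, but its MP libraries ranged from 0.902 to 16.9 scaled fragments and its APL libraries from 22.4 to 38.8 (log2 fold change 2.97, SE 0.79).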

How the data were processed

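The 6 RNA-seq libraries were 3 of sorted normal MPs and 3 of c-Kit+ APL progenitors. The authors deposited 1 table with an FPKM value and an estimated fragment value per gene and library. The FPKM columns also correct for transcript length, and how library size entered them is not given. Group differences were nearly the same on both scales for Epor and Kit. Epor kept 0.746% of its MP mean in scaled fragments and 0.749% in FPKM, and Kit kept 55.6% and 55.7%. The FPKM alternative was therefore not taken as an independent scaling of the libraries. The deposited fragment values are a signal that the authors' processing had scaled per library: between 87.0% and 90.0% of nonzero values were whole multiples (within 0.05) of a step specific to the library, so no count test was applied. The submitters' processing notes name CASAVA 1.8, TopHat2 2.0.6 and the build mm10. The paper's methods name STAR, mm9, HTSeq-count and DESeq2, and the tool that made the table is not named. Positions follow GRCm38.

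Differential expression was tested with limma 3.58.1 in R 4.3.3 with a mean-variance trend, after log2(x + 1) of the scaled fragments and a minimum of 1 in at least 3 libraries. Fold changes on this scale understate those of genes with few fragments. The folds and percentages given with them are ratios of group means. The smallest p of the exact permutation test is 0.1 for 3 libraries against 3. The fit was also run on simulated independent counts with a fixed dispersion. In these, 199 of 200 changed genes among 14328 were recovered with 5 false calls, at median log2 fold changes of 1.51 and −1.46. The deposited values are scaled estimates with 6725 genes called and much larger decreases. The simulation therefore does not give the error rate of the main test. None of the 9 genes overlapped another gene of the table. Genes under older symbols in the table are given by current ones, and promoter sequences are from RefSeq (GRCm38.p6).

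The 9 genes and the lists were chosen with earlier results of these data known. Genes named were the 9, genes of the 4 comparison lists with at least the 3 largest decreases and 3 largest increases called in each, the 5 genes most like Epor and the 5 most like Slc4a1, and marker genes. Some genes of these lists are counted but not reported here. Alternatives covered pseudocounts of 0.5 and 5, filters, scaling, FPKM with a pseudocount of 0.1, voom weights, the replicate number as a block, thresholds and each library left out. Plots used matplotlib 3.10.9 (Python 3.11.15).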

Additional observations from a re-analysis of the deposited data

How the results depend on the processing

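All 8 genes called lower among the 9 were called lower under every alternative, and Slc4a1 under none but the omission of MP library 2. Slc4a1 gave no value with a minimum of 10 scaled fragments or with FPKM. The log2 fold change of Epor ranged from −7.13 (voom) to −6.48 (pseudocount 5), and with 1 library left out from −7.07 to −6.77. Scaling to the same total and voom each shifted the median gene by −0.13. Of the other membrane genes, 1 rather than 2 was called higher with quantile normalization, the same total, voom, a fold change over 2 or MP library 2 left out (1 to 2 over all omissions). At a fold change over 2, Epor signalling genes called lower numbered 3 rather than 5 and those called higher 5 rather than 9, and 1 member paralog rather than 2 was called higher. Epor signalling genes called higher numbered 6 with the same total and with voom, 8 with quantile normalization, 10 with median-ratio scaling and 7 to 10 with 1 library left out, the lowest without APL library 2. Reversals touched only genes not called: Pik3r1 was −0.06 with the same total and with voom, Il6ra −0.10 with both, Ank3 0.56 and Rhcg 0.61 with quantile normalization. With 1 library left out, Pik3r1 ranged from −0.02 to 0.11, Cbl from −0.04 to 0.33, Ank3 from −0.34 to 0.13, Rhcg from −0.18 to 0.01 and Il6ra from −0.02 to 0.09. The cause was not tested.

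With the replicate number as a block, the 8 genes and no more of the 9 were called, Epor stayed at −6.93, and 6753 genes were called in all against 6725, of which 6673 were shared. The block changed the call of no gene named. Deviations from the group means correlated at 0.214, 0.042 and 0.209 for libraries 1, 2 and 3 of both groups over 10310 genes. Libraries of different numbers correlated at −0.345 to 0.200, the highest being MP library 2 with APL library 1. These values do not settle whether the libraries were paired. The study states no pairing, so the numbers were not taken as pairs. The few fragments in APL limit the folds.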
